A study of Mus musculus with 12 samples.

Results

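The 6 genes Asgr1, Rab39b, Hcar2, Dio1, Aldh1a7 and Ucn2 are described here in the mouse lacrimal gland, the gland that makes the watery part of tears. They are 6 of the 11736 genes in a gene table of FPKM values (fragments per kilobase of transcript, set relative to the size of each library), with 8 of the 21202 transcripts in the matching transcript table. They were chosen because they differed from control in the same direction in every other group, each time at an adjusted p under 0.05. Asgr1, Rab39b and Hcar2 lay above control, and Dio1, Aldh1a7 and Ucn2 below it. Those differences from control therefore chose the genes and are given below as a description, without a test. RNA was sequenced from 12 libraries in 4 groups of 3: mice labelled ESS, NOD mice aged 8 weeks, NOD mice aged 12 weeks and control mice. The study's description writes LGSS where the library labels write ESS. The NOD strain is known for spontaneous diabetes and for immune cell infiltrates in its lacrimal and salivary glands. The sources used here do not give the strain, sex and age of the ESS and control mice, how ESS mice were made, or whether each library is a separate animal. The p-values therefore measure the spread between these libraries. Strain, age and disease cannot be told apart in NOD against control, nor in ESS against NOD.

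The 6 genes have separate textbook roles. Asgr1 encodes the main subunit of the asialoglycoprotein receptor, a C-type lectin best known in hepatocytes, which takes up glycoproteins whose sugar chains end in galactose. Hcar2 encodes a receptor coupled to inhibitory G proteins that senses beta-hydroxybutyrate and niacin and is best known in fat and immune cells. Rab39b encodes a small GTPase of vesicle traffic and autophagy that is best known in neurons. Dio1 encodes a deiodinase, a selenium-containing enzyme that removes iodine from thyroid hormones, and it is best known in liver, kidney and thyroid. Aldh1a7 encodes a cytosolic aldehyde dehydrogenase closely related to Aldh1a1, an enzyme that makes retinoic acid. Ucn2 encodes urocortin 2, a secreted peptide of the corticotropin-releasing hormone family.

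In ESS against control, 17 genes passed an adjusted p of 0.05 (limma with Benjamini-Hochberg adjustment), which is 0.165% of the 10325 genes tested. Of these, 12 also passed with the same sign at both NOD ages, where 27.4% of genes passed at 8 weeks and 33.4% at 12 weeks. The 6 genes described here are 6 of those 12, and Jchain, Sardh, Slc39a8, Sox9, Tacc3 and Pola2 are the other 6. Those other 6 met the same rule, a pass with the same sign in all 3 comparisons, but are not among the chosen genes. The 3 comparisons share the 3 control libraries. None of the 6 genes overlapped control in any of them, where 18.2% of all genes tested did not overlap in ESS, 40.9% in NOD at 8 weeks and 49.2% in NOD at 12 weeks, and nothing is read from these counts because they chose the genes. Just inside the rule, among the 6 genes, lay Ucn2. Its log2 differences from control were -0.64 in ESS, -1.08 in NOD at 8 weeks and -0.91 in NOD at 12 weeks. Just outside the rule lay Cbs, with 1.70, 0.65 and 0.87, which missed the threshold in NOD at 8 weeks.

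ESS libraries 1 and 2 stand apart from the rest in salivary gland markers. The 9 of 12 listed salivary markers with a row summed to 14756, 9808 and 314 FPKM in the ESS libraries, 334 to 395 in NOD at 8 weeks, 314 to 326 in NOD at 12 weeks and 273 to 350 in control. All 10 lacrimal acinar markers had values, and their sum lay between 29118 and 46757 FPKM in the 12 libraries, so the defining markers of the labelled tissue were present. Differences of ESS from control are therefore also given without ESS libraries 1 and 2. That leaves a lone ESS library, so only the size of the difference is given. With all libraries, 7 genes passed higher and 10 lower in ESS against control. Relative depth and whole read numbers were not recovered from the values, and no counting interval is given. Values are FPKM as deposited, means carry the SD of 3 libraries, and log2 differences are on log2(FPKM + 1), which understates the change of low genes. All log2 differences below have the median difference of all genes tested taken off, because that median lay at -0.06 in ESS, -0.15 in NOD at 8 weeks and -0.18 in NOD at 12 weeks against control.

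**Figure D1:**
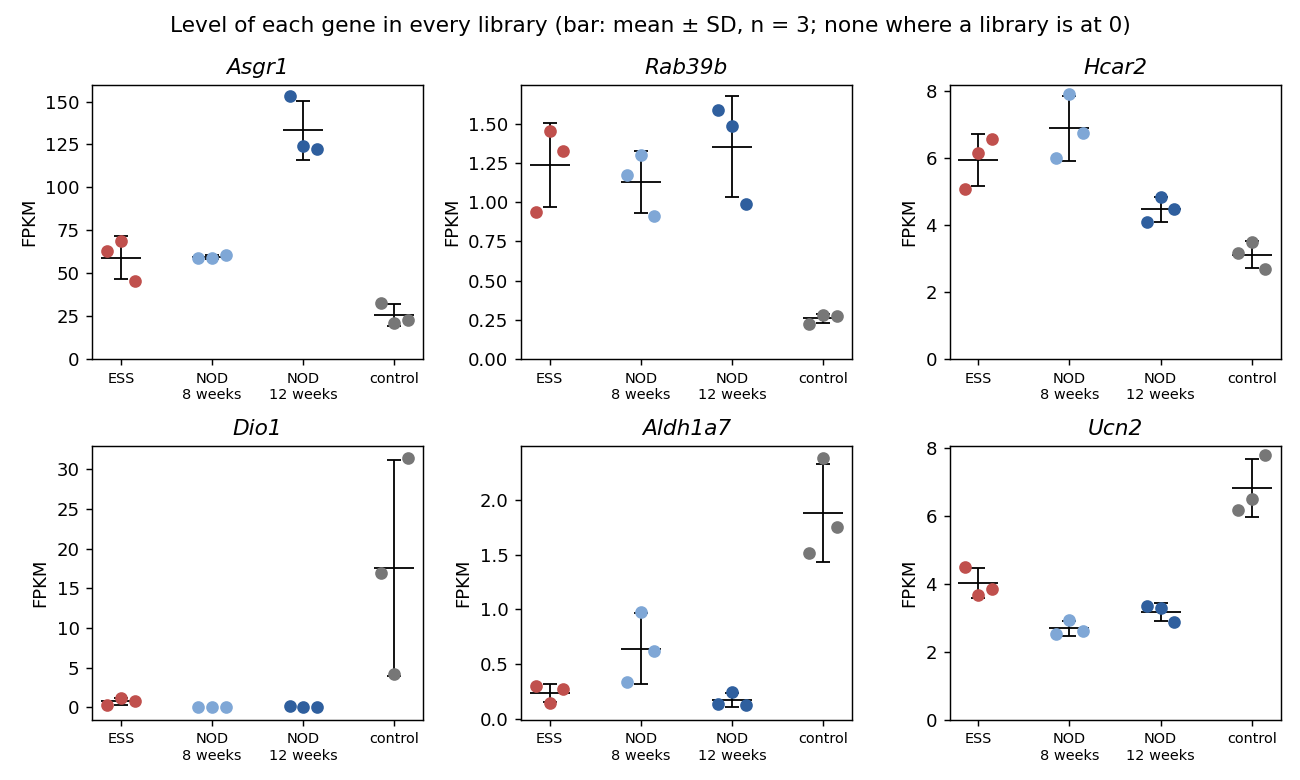
FPKM (vertical axis, linear, each panel with its own scale) of the 6 genes in every library of the 4 groups; bars are the mean ± SD of 3 libraries and are left out where a library is listed at 0. No ESS or NOD library of any gene lies within the range of the control libraries, and Asgr1 in NOD at 12 weeks stands above all other groups, with 122 to 153 FPKM.

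Asgr1 (ENSMUSG00000020884.15, GRCm38 chr11:70054085-70057894, plus strand) was the most abundant of the genes that stood above control. It had 63.0, 69.0 and 45.4 FPKM in ESS, 58.6, 58.6 and 60.5 FPKM in NOD at 8 weeks, 153, 124 and 122 FPKM in NOD at 12 weeks, and 32.8, 20.7 and 22.9 FPKM in control. Each of the 9 ESS and NOD libraries exceeded all 3 control libraries, and NOD at 12 weeks exceeded every other group. Asgr1 averaged 59.1 ± 12.3 FPKM in ESS, 59.2 ± 1.11 in NOD at 8 weeks, 133 ± 17.1 in NOD at 12 weeks and 25.5 ± 6.42 in control, so its ESS mean was 2.32 times, its NOD mean at 8 weeks 2.33 times and its NOD mean at 12 weeks 5.23 times the control mean. The log2 difference from control was 1.25 in ESS, 1.36 in NOD at 8 weeks and 2.55 in NOD at 12 weeks. The ESS libraries with salivary markers were also the 2 with more Asgr1, and without them the log2 difference from control was 0.92 in ESS; the part of those markers in Asgr1 was not tested.

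The deposited transcript table lists 3 Asgr1 transcripts, and RefSeq has 2 start sites for the gene. Their promoters (GRCm38.p6, 250 bases before to 50 after the start site, plus strand) are shown because Asgr1 has a pair of start sites. The first window is chr11:70053874-70054173. The second is chr11:70054105-70054404, and its start site at 70054355 is the first base of transcript Asgr1-203. Capitals mark AGGTCA, a nuclear receptor half-site, and TGAGTCA, an AP-1 element, each searched on both strands.
Asgr1 promoter 1: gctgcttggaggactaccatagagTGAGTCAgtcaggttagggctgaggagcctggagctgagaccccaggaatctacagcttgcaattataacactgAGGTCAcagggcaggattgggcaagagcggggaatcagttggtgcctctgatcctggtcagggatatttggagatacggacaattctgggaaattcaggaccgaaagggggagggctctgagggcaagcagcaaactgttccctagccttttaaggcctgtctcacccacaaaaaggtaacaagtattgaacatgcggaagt
Asgr1 promoter 2: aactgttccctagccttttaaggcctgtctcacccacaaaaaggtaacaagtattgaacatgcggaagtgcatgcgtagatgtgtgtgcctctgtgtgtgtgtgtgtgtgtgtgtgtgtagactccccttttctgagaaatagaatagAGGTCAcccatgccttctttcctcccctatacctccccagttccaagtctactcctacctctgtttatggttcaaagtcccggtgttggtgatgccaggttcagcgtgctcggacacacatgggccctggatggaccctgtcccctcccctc
The first window holds AGGTCA at -152 and TGAGTCA at -226 from the start site, and the second holds AGGTCA at -102. These letters are common, since 16.3% of 32851 RefSeq promoter windows hold AGGTCA and 5.2% hold TGAGTCA. A match is a description of letters and not a shown binding site.

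Asgr1-203 carried 55.3% and 59.0% of the gene's summed transcript FPKM in ESS libraries 1 and 2, 55.7% to 66.5% in NOD at 8 weeks, 63.1% and 52.8% in NOD libraries 1 and 3 at 12 weeks, and 52.9% to 64.9% in control. It carried 3.74% in ESS library 3 and 4.75% in NOD library 2 at 12 weeks, where Asgr1-202 carried 92.4% and 94.3%. A different transcript split in these libraries and a failed assignment by the authors' quantification cannot be told apart. Asgr1-204, the shortest of the 3 with 600 bases, was listed at 0 in 6 of the 12 libraries. The summed transcript values were 95.2, 89.6 and 56.6 FPKM in ESS, 76.6, 82.8 and 79.2 in NOD at 8 weeks, 199, 153 and 169 in NOD at 12 weeks, and 49.0, 26.7 and 29.9 in control. Summed in this way, all 9 ESS and NOD libraries lay above the control libraries. The sums rest on the same reads as the gene values that chose Asgr1, so they add no separate evidence.

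**Figure D2:**
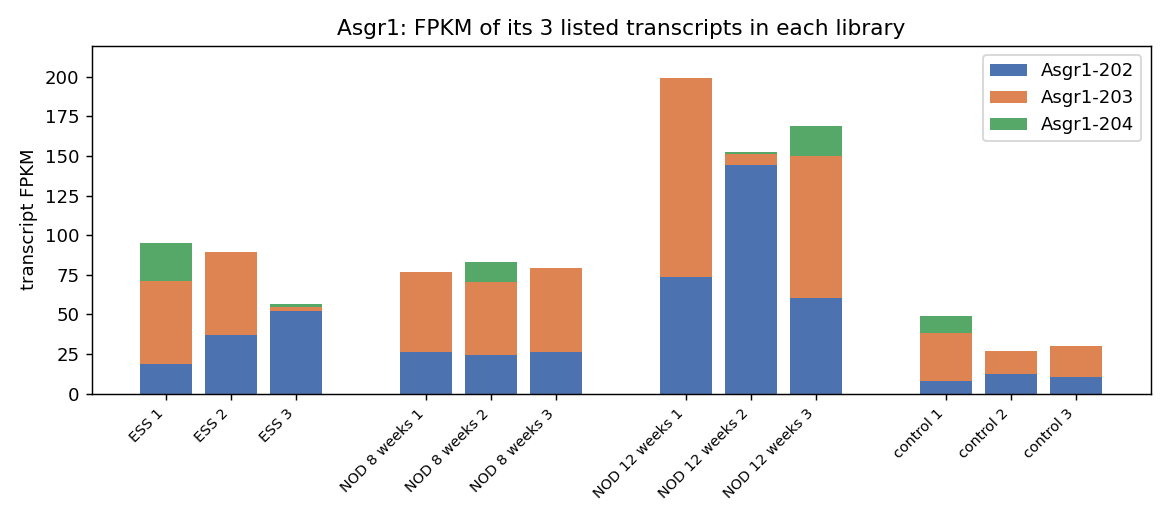
Stacked bars give the FPKM of the 3 listed Asgr1 transcripts (vertical axis, from 0) in each of the 12 libraries, in the order ESS, NOD 8 weeks, NOD 12 weeks and control. ESS library 3 and NOD library 2 at 12 weeks are almost wholly Asgr1-202, and the other 10 libraries hold more than 50% Asgr1-203.

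The partner subunit and liver markers are given beside Asgr1. Asgr2, the second subunit of the hepatic receptor, averaged 1.65 ± 1.06 FPKM in ESS, 0.759 ± 0.129 in NOD at 8 weeks, 1.23 ± 0.0490 in NOD at 12 weeks and 1.22 ± 0.677 in control, and it did not pass in any comparison with control (limma adjusted p = 0.737 in ESS, 0.403 in NOD at 8 weeks and 0.893 in NOD at 12 weeks). Of 10 hepatocyte markers 3 had a row, and they summed to 4.96, 3.76 and 0.834 FPKM in ESS libraries 1, 2 and 3. Ttr alone had 3.76, 3.50 and 0.116 FPKM of these sums, so those of ESS libraries 1 and 2 are mostly a single marker. ESS libraries 1 and 2 are those with the salivary markers. The hepatocyte sum was 0.691 to 1.42 FPKM in NOD at 8 weeks, 0.151 to 0.661 in NOD at 12 weeks and 0.113 to 1.49 in control. The defining marker Alb has no row and is not analysed here. In bulk tissue, a change in the number of cells of a type and a change in RNA per cell cannot be told apart, here or for any gene below. Of 14 other C-type and related lectins tested, 0 passed in ESS against control by limma (1 higher and 1 lower at an unadjusted p under 0.05). In NOD at 8 weeks 2 rose and 0 fell, and at 12 weeks 2 rose and 1 fell, below the shares of all genes that passed (27.4% and 33.4%). Clec16a, a regulator of endosome traffic and mitophagy, averaged 2.66 FPKM in NOD at 8 weeks, 2.33 in NOD at 12 weeks and 1.58 in control (limma adjusted p = 0.0083 and 0.0317). Lman1, a cargo receptor of the early secretory pathway, averaged 56.9 FPKM in NOD at 8 weeks, 55.5 at 12 weeks and 44.4 in control (limma adjusted p = 0.0327 and 0.0405). Cd209a, a dendritic cell lectin, fell at 12 weeks to 0.745 FPKM, against 1.72 FPKM in control (limma adjusted p = 0.0134). The genes whose levels moved most like Asgr1 over the 12 libraries were Sardh, Tmprss11d and Ncald, with a root mean square difference of 0.33, 0.43 and 0.45 log2 units where Asgr1 itself has an SD of 0.86. Sardh, the mitochondrial enzyme sarcosine dehydrogenase, averaged 7.56 FPKM in ESS, 9.37 in NOD at 8 weeks, 13.0 in NOD at 12 weeks and 3.60 in control.

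Hcar2 (ENSMUSG00000045502.6, chr5:123863570-123865499, minus strand) stood above control in every ESS and NOD library, with its highest values in NOD at 8 weeks. It had 5.08, 6.15 and 6.58 FPKM in ESS, 6.00, 7.92 and 6.74 FPKM in NOD at 8 weeks, 4.10, 4.83 and 4.47 FPKM in NOD at 12 weeks, and 3.16, 3.49 and 2.69 FPKM in control. The lowest ESS or NOD library, with 4.10 FPKM, lay above the highest control library, and the NOD groups did not overlap each other. Means were 5.94 ± 0.773 FPKM in ESS, 6.89 ± 0.969 in NOD at 8 weeks, 4.47 ± 0.364 in NOD at 12 weeks and 3.11 ± 0.404 in control. The ESS mean was 1.91 times the control mean, the NOD mean at 8 weeks 2.21 times and the NOD mean at 12 weeks 1.44 times. The log2 difference from control was 0.81 in ESS (0.97 without ESS libraries 1 and 2), 1.08 in NOD at 8 weeks and 0.60 in NOD at 12 weeks.

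Hcar1, the lactate receptor of the same family, averaged 13.1 ± 2.51 FPKM in ESS, 11.3 ± 1.77 in NOD at 8 weeks, 11.4 ± 0.556 in NOD at 12 weeks and 11.9 ± 1.19 in control, and it did not pass against control (limma adjusted p = 0.749, 0.723 and 0.779). Summed markers of cells known to carry Hcar2 are given beside it, and their part in its level was not tested. The 10 macrophage markers, all with values, summed to 121 to 202 FPKM in ESS and 103 to 179 in control. In NOD their sum was 54.5 to 61.4 FPKM at 8 weeks and 59.1 to 88.4 at 12 weeks. The 6 of 10 adipocyte markers with a row summed to 4.54 to 16.0 FPKM in ESS, 10.2 to 22.6 in NOD at 8 weeks, 4.56 to 15.6 in NOD at 12 weeks and 5.38 to 21.3 in control, and these ranges overlapped. Of 10 neutrophil markers 2 had a row, and their sum did not exceed 2.88 FPKM in any library. Of 15 other genes of G protein coupling and ketone body use, 0 passed in ESS by limma (0 higher and 2 lower at an unadjusted p under 0.05), and 1 rose and 4 fell at each NOD age, near the shares of all genes (27.4% and 33.4%). After quantile normalization and with centred medians alike, 1 rose and 1 fell at 8 weeks, and 2 rose and 2 fell at 12 weeks. Gnai2, an inhibitory G protein subunit, fell to 13.3 FPKM in NOD at 8 weeks and 13.1 at 12 weeks, against 22.5 in control (limma adjusted p = 0.00342 and 0.00257). Arrb2, an arrestin that ends receptor signalling, fell to 3.59 and 3.30 FPKM, against 5.22 in control (limma adjusted p = 0.0181 and 0.00536), although at 8 weeks it did not pass after quantile normalization (adjusted p = 0.0800). Bdh1, which interconverts the ketone bodies, rose to 5.84 and 6.52 FPKM, against 4.65 in control (limma adjusted p = 0.0479 and 0.00598). The genes most like Hcar2 in pattern were Kcnip3, Esp15 and Dusp14, at 0.18, 0.21 and 0.21 log2 units where Hcar2 has an SD of 0.38. Of the 10325 genes tested, 9 lay within 0.25.

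Rab39b (ENSMUSG00000031202.5, chrX:75572046-75578231, minus strand) was low in all groups and lowest in control. It had 0.936, 1.45 and 1.33 FPKM in ESS, 1.17, 1.30 and 0.912 FPKM in NOD at 8 weeks, 1.59, 1.48 and 0.985 FPKM in NOD at 12 weeks, and 0.226, 0.281 and 0.272 FPKM in control. The lowest ESS or NOD library had 0.912 FPKM, above the highest control library. Means were 1.24 ± 0.268 FPKM in ESS, 1.13 ± 0.196 in NOD at 8 weeks, 1.35 ± 0.322 in NOD at 12 weeks and 0.260 ± 0.0293 in control, or 4.76, 4.34 and 5.20 times the control mean in ESS and in NOD at 8 and 12 weeks. The log2 difference from control was 0.88 in ESS (0.97 without ESS libraries 1 and 2), 0.90 in NOD at 8 weeks and 1.07 in NOD at 12 weeks, and with a pseudocount of 0.1 it was 1.95, 1.94 and 2.21. Rab39b reached the 1 FPKM filter in 6 libraries, all of them ESS or NOD, so it entered the test only through the groups where it was high.

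The promoter of Rab39b is shown because it is the member with the largest ratio to control among those that stood above it in ESS and NOD at 8 weeks. It lies at chrX:75578182-75578481 on the minus strand (RefSeq, GRCm38.p6). Capitals mark TGAGTCA and the reverse complement of TATAAA, the TATA box.
Rab39b promoter: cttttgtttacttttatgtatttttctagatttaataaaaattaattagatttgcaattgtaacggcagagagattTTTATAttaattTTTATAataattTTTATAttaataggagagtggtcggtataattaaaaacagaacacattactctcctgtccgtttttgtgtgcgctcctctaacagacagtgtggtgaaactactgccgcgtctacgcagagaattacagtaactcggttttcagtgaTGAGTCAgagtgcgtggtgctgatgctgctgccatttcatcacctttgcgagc
TGAGTCA lies at -3 from the start site, and the TATA letters lie on the other strand at -174, -162 and -150. TATAAA occurs in 13.6% of all promoter windows and TGAGTCA in 5.2%, and the GC content of this window is 35.7%. The annotated antisense gene Gm15063 overlaps Rab39b and shares 353 bases, 10.4% of its 3401-base transcript. The kit marks strand, per the labels, but the sources used here do not say whether counting used strand, so reads of the 2 genes in those bases may not be told apart.

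Of 18 other genes of Rab39b partners and autophagy, 0 passed in ESS against control by limma, and 0 had an unadjusted p under 0.05. In NOD, 0 rose and 3 fell at 8 weeks, and 0 rose and 2 fell at 12 weeks, below the shares of all genes (27.4% and 33.4%). The direction depends on the scaling: after quantile normalization and with centred medians alike, 1 rose and 1 fell at 8 weeks, and 1 rose and 0 fell at 12 weeks. Ulk1, the kinase that starts autophagy, fell to 6.46 FPKM in NOD at 8 weeks and 6.88 at 12 weeks, against 10.0 in control (limma adjusted p = 0.00939 and 0.0163). After quantile normalization Ulk1 passed at 8 weeks (adjusted p = 0.0275) and missed the threshold at 12 weeks (0.0977). Rab8b, a GTPase of secretory traffic, fell at 8 weeks to 0.750 FPKM, against 1.58 in control (limma adjusted p = 0.0155), and Atg14, a subunit of the autophagy lipid kinase complex, fell at 8 weeks to 1.87 FPKM, against 2.67 in control (limma adjusted p = 0.0437). Both lost the call after quantile normalization (adjusted p = 0.0632 and 0.206). Within 0.25 log2 units of Rab39b in pattern lay 39 of the 10325 genes tested, led by Esp15, Twf2 and Atp11a at 0.17, 0.18 and 0.18. Rab39b itself has an SD of 0.38, and a count in a fixed window depends on that SD. Esp15, an exocrine gland-secreted peptide gene, averaged 9836 FPKM in ESS, 9928 in NOD at 8 weeks, 9637 in NOD at 12 weeks and 6268 in control.

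Dio1 (ENSMUSG00000034785.14, chr4:107291465-107307169, minus strand) had the largest difference from control, in glands where the control libraries themselves varied widely. It had 0.316, 1.22 and 0.749 FPKM in ESS. In NOD at 8 weeks it was listed at 0 in 1 library and had 0.0927 and 0.0724 FPKM in the others, and in NOD at 12 weeks it had 0.142 FPKM in 1 library and was listed at 0 in 2. The control libraries had 17.0, 4.24 and 31.4 FPKM. The lowest control library still held more than the highest ESS library, and every NOD library lay below every ESS library. Dio1 averaged 0.763 ± 0.455 FPKM in ESS and 17.5 ± 13.6 FPKM in control, a ratio of 0.0435. A listed 0 can be a failed estimate, since 26 genes in the table are at 0 in a library where another library of the same group has at least 5 FPKM, so no mean is given for NOD.

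The log2 difference of Dio1 from control was -3.01 in ESS (-2.97 without ESS libraries 1 and 2), -3.64 in NOD at 8 weeks and -3.61 in NOD at 12 weeks. Without control library 2, the lowest, the same differences were -3.76, -4.38 and -4.36, and without control library 3, the highest, they were -2.42, -3.05 and -3.02. Dio1 passed the 1 FPKM filter in 4 libraries, the 3 control libraries and ESS library 2. Its promoter, chr4:107307119-107307418 on the minus strand (RefSeq, GRCm38.p6), is shown because Dio1 changed most, and it has no capitals because the half-site, the AP-1 element and the TATA box as spelled above do not occur in it.
Dio1 promoter: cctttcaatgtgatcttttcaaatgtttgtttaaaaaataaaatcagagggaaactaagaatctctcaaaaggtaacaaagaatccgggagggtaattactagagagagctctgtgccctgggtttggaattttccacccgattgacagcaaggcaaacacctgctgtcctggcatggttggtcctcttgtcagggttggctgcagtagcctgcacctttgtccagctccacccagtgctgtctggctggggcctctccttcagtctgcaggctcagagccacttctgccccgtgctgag
That no match was found says only that these letters are not in this window.

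The thyroid hormone receptors are given beside Dio1. Thra averaged 4.10 ± 0.823 FPKM in ESS, 3.20 ± 0.585 in NOD at 8 weeks, 3.99 ± 0.429 in NOD at 12 weeks and 3.28 ± 0.288 in control (limma adjusted p = 0.499, 0.873 and 0.247). In NOD at 12 weeks Thra passed with a log2 difference of 0.41 under other scalings, after quantile normalization (adjusted p = 0.0142) and with library medians centred (0.0157). Thrb had 10.4 to 11.8 FPKM in ESS, 9.75 to 13.2 in NOD at 8 weeks, 10.6 to 12.3 in NOD at 12 weeks, and 14.1, 13.6 and 0.792 FPKM in control (limma adjusted p = 0.650, 0.356 and 0.353). A low level of Thrb in control library 3 and a failed estimate in the authors' values cannot be told apart. Dio2 and Dio3, the other deiodinases, have no row in the table and are not analysed here.

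Of 18 other genes of thyroid hormone handling, 0 passed in ESS by limma (0 higher and 3 lower at an unadjusted p under 0.05), 0 rose and 2 fell in NOD at 8 weeks, and 1 rose and 3 fell at 12 weeks, below the shares of all genes (27.4% and 33.4%). With centred medians 3 rose and 1 fell at 8 weeks, and 3 rose and 2 fell at 12 weeks. After quantile normalization 1 rose and 2 fell at 8 weeks, and 2 rose and 2 fell at 12 weeks. Rxrb, the partner receptor of thyroid and retinoid receptors, fell to 5.84 FPKM in NOD at 8 weeks and 5.70 at 12 weeks, against 8.98 in control (limma adjusted p = 0.00417 and 0.0025). Slc7a8, an amino acid transporter that also carries thyroid hormones, rose at 12 weeks to 2.40 FPKM, against 1.43 in control (limma adjusted p = 0.0348). Of 20 other selenoprotein genes, 0 passed in ESS by limma (1 higher and 1 lower at an unadjusted p under 0.05), while 6 fell at 8 weeks and 7 at 12 weeks in NOD, near the shares of all genes (27.4% and 33.4%). This direction depends in part on the scaling: with library medians centred, 3 rose and 3 fell at 8 weeks, and 0 rose and 5 fell at 12 weeks. Selenow, a small redox selenoprotein, fell under each scaling, to 48.8 ± 3.85 FPKM in NOD at 8 weeks and 58.1 ± 4.35 at 12 weeks, against 108 ± 13.0 in control (limma adjusted p = 2.81e-05 and 0.000163). Selenoh, a nuclear selenoprotein, fell likewise to 9.17 and 8.97 FPKM, against 21.1 in control (limma adjusted p = 0.000776 and 0.000564). Sephs2, which makes the selenium donor for all selenoproteins, fell to 8.33 and 7.76 FPKM, against 12.0 in control (limma adjusted p = 0.00186 and 0.000515), and at 8 weeks it missed the threshold with centred medians (adjusted p = 0.0548). The genes nearest to Dio1 in pattern, Stmn1, Fam25c and Fndc5, were not close, at 0.83, 0.84 and 0.84 log2 units where Dio1 has an SD of 1.67.

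Aldh1a7 (ENSMUSG00000024747.3, chr19:20692953-20727562, minus strand) was low throughout and lowest in ESS and in NOD at 12 weeks. It had 0.302, 0.145 and 0.269 FPKM in ESS, 0.335, 0.976 and 0.617 FPKM in NOD at 8 weeks, 0.136, 0.244 and 0.131 FPKM in NOD at 12 weeks, and 1.51, 2.38 and 1.76 FPKM in control. All control libraries lay above all others, and NOD at 8 weeks lay above both ESS and NOD at 12 weeks without overlap. Means were 0.239 ± 0.0824 FPKM in ESS, 0.643 ± 0.321 in NOD at 8 weeks, 0.170 ± 0.0640 in NOD at 12 weeks and 1.88 ± 0.447 in control, or 0.127, 0.341 and 0.0905 times the control mean in ESS and in NOD at 8 and 12 weeks. The log2 difference from control was -1.15 in ESS (-1.09 without ESS libraries 1 and 2), -0.67 in NOD at 8 weeks and -1.11 in NOD at 12 weeks, and it was -2.48, -1.31 and -2.65 with a pseudocount of 0.1. Aldh1a7 reached 1 FPKM in the 3 control libraries and in no other, so it entered the test only through control.

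The closest other transcript is that of Aldh1a1, which lies on the same chromosome and is 89.1% identical over 2072 aligned positions, so the authors' counting could have moved reads between them and both values are uncertain. Their promoters are shown because they are near copies around the start site. Aldh1a7 lies at chr19:20727507-20727806 on the minus strand and the second Aldh1a1 promoter at chr19:20601718-20602017 on the plus strand (RefSeq, GRCm38.p6). Capitals mark the longest run identical in both, 65 bases from -94.
Aldh1a7 promoter: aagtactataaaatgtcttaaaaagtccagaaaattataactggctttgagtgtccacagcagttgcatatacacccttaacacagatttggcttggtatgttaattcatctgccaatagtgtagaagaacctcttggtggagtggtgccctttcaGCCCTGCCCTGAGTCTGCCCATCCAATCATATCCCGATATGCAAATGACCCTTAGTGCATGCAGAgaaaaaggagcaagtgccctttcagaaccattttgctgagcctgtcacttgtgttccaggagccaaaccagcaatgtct
Aldh1a1 promoter 2: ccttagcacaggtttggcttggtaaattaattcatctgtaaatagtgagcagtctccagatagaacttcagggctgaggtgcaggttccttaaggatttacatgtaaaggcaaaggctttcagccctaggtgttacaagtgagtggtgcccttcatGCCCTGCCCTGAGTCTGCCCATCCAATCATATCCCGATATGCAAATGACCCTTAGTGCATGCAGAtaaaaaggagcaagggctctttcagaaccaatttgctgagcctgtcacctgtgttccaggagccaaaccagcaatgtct
Position by position, 177 of the 300 bases are identical, and 142 of the last 150.

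Aldh1a1 did not track Aldh1a7 in NOD at 8 weeks. It had 0.931, 0.821 and 0.750 FPKM in ESS, 1.95, 1.57 and 1.26 FPKM in NOD at 8 weeks, 0.735, 0.960 and 0.897 FPKM in NOD at 12 weeks, and 1.71, 1.95 and 1.37 FPKM in control. ESS and NOD at 12 weeks lay below control without overlap, and NOD at 8 weeks overlapped control. Against control Aldh1a1 fell in NOD at 12 weeks (limma adjusted p = 0.00721) and did not pass in ESS (0.0985) or in NOD at 8 weeks (0.804). Aldh1a2, another retinal dehydrogenase, lay below the filter, with 0.0659 to 0.547 FPKM in ESS, 0.126 to 0.501 in NOD at 8 weeks, 0.196 to 0.238 in NOD at 12 weeks and 0.298 to 1.03 in control.

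**Figure D3:**
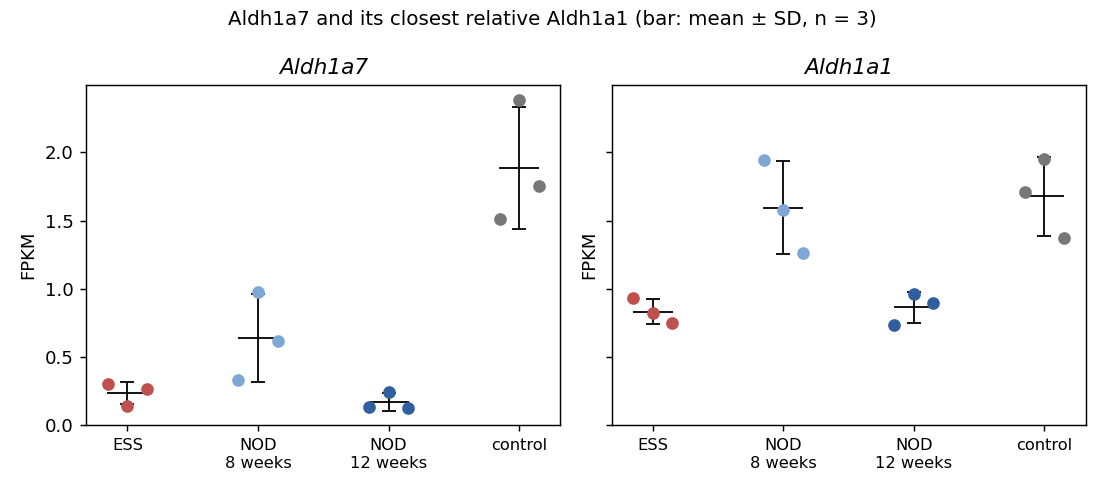
FPKM (vertical axis, from 0, shared by both panels) of Aldh1a7 on the left and Aldh1a1 on the right in every library of the 4 groups, with bars for the mean ± SD of 3 libraries. In NOD at 8 weeks Aldh1a7 lies below control, with 0.335 to 0.976 FPKM, while Aldh1a1, with 1.26 to 1.95 FPKM, overlaps control.

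Of 25 other genes of retinoid and aldehyde oxidation, 0 passed in ESS by limma (2 higher and 6 lower at an unadjusted p under 0.05). In NOD 5 rose and 5 fell at 8 weeks and 4 rose and 9 fell at 12 weeks, where 27.4% and 33.4% of all genes passed. With library medians centred 10 rose and 1 fell at 8 weeks and 6 rose and 4 fell at 12 weeks. Rdh11, a retinal reductase, averaged 1.15 ± 0.156 FPKM in ESS and rose in NOD under each scaling, to 5.52 ± 2.12 FPKM in NOD at 8 weeks and 5.62 ± 0.437 at 12 weeks, against 1.09 ± 0.142 in control (limma adjusted p = 0.00016 and 0.000105 in NOD). Aldh1l2, a mitochondrial folate enzyme, rose to 16.8 and 14.6 FPKM, against 9.16 in control (limma adjusted p = 0.00296 and 0.00969). Aldh3a1, the aldehyde dehydrogenase known from the cornea, fell to 0.827 and 0.341 FPKM, against 1.79 in control (limma adjusted p = 0.0125 and 0.000363), and at 8 weeks it missed the threshold with centred medians (adjusted p = 0.0504). The genes most like Aldh1a7 in pattern were Sult1a1, Per3 and Glul, each at 0.26 log2 units where Aldh1a7 has an SD of 0.53. Per3, a clock gene, averaged 0.808 FPKM in ESS, 2.02 in NOD at 8 weeks, 0.767 in NOD at 12 weeks and 2.76 in control.

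Ucn2 (ENSMUSG00000049699.4, chr9:108986010-108987164, plus strand) stood below control in every ESS and NOD library. It had 4.52, 3.69 and 3.87 FPKM in ESS, 2.54, 2.94 and 2.61 FPKM in NOD at 8 weeks, 3.35, 3.29 and 2.88 FPKM in NOD at 12 weeks, and 6.20, 6.50 and 7.82 FPKM in control. The highest of the 9 ESS and NOD libraries, with 4.52 FPKM, lay below the lowest control library. Means were 4.02 ± 0.436 FPKM in ESS, 2.70 ± 0.212 in NOD at 8 weeks, 3.17 ± 0.256 in NOD at 12 weeks and 6.84 ± 0.859 in control, or 0.588, 0.394 and 0.464 times the control mean in ESS and in NOD at 8 and 12 weeks. The log2 difference from control was -0.58 in ESS (-0.60 without ESS libraries 1 and 2), -0.94 in NOD at 8 weeks and -0.72 in NOD at 12 weeks. The other ligands Ucn and Ucn3 and the receptors Crhr1 and Crhr2 have no row and are not analysed here. Mc5r, a melanocortin receptor of exocrine glands and the only other gene of this family list with values, averaged 13.6 ± 1.81 FPKM in ESS, 15.9 ± 3.92 in NOD at 8 weeks, 16.4 ± 1.06 in NOD at 12 weeks and 9.70 ± 3.07 in control. Mc5r rose at both NOD ages (limma adjusted p = 0.0298 and 0.0169) and did not pass in ESS (0.385). Within 0.25 log2 units of Ucn2 in pattern lay 466 of the 10325 genes tested, led by Ifnlr1, Tacc3 and Ifi35 at 0.14 each. Ucn2 itself has an SD of 0.42, and a count in a fixed window depends on that SD.

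The comparisons that hold no control library ask whether the 6 genes differ between ESS and NOD glands and between the NOD ages. They use the ESS and NOD libraries that also chose the genes. Each equals a difference from control minus another such difference, so the p-values below are not free of that choice. Printed differences and intervals have the median of all genes taken off. That median was 0.09 in ESS against NOD at 8 weeks, 0.12 against NOD at 12 weeks and -0.03 in NOD at 12 against 8 weeks. Each p tests the difference before the median is taken off, so an interval and its p need not match. In ESS against NOD at 8 weeks, 1 of the 6 genes passed, where 15.2% of all genes tested did, so the count is near the background. Ucn2 was higher in ESS, with a log2 difference of 0.35 (95% interval 0.12 to 0.59, SE 0.107, limma adjusted p = 0.0158), and all 3 ESS libraries lay above all 3 NOD libraries. It missed the threshold without ESS library 1 (difference 0.30, limma adjusted p = 0.0672) and without NOD library 1 (0.30, 0.0579). Without ESS libraries 1 and 2 the Ucn2 difference was 0.34, from a lone ESS library. Asgr1 differed by -0.11 (95% interval -0.50 to 0.27, limma adjusted p = 0.951), Rab39b by -0.02 (-0.30 to 0.26, 0.774) and Hcar2 by -0.27 (-0.54 to -0.01, 0.361). Aldh1a7 differed by -0.48 (95% interval -0.81 to -0.15, limma adjusted p = 0.106), with no overlap of the groups, where 33.1% of all genes had none. Dio1 differed by 0.62 (95% interval -0.43 to 1.67, limma adjusted p = 0.369), also without overlap. With a pseudocount of 0.1 in place of 1, Dio1 was higher in ESS by 2.27 (limma adjusted p = 0.0358). That call rests on NOD values of 0 to 0.0927 FPKM, and a listed 0 can be a failed estimate.

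In ESS against NOD at 12 weeks, 1 of the 6 passed, where 20.6% of all genes did. Asgr1 was lower in ESS, with a log2 difference of -1.30 (95% interval -1.68 to -0.91, SE 0.176, limma adjusted p = 0.000846). All 3 ESS libraries lay below all 3 NOD libraries, and the call held in each of the 15 alternatives, with an adjusted p of 0.000203 to 0.00447. Among these alternatives, leaving out ESS libraries 1 and 2 gave a difference of -1.62, from a lone ESS library. Rab39b differed by -0.19 (95% interval -0.48 to 0.09, limma adjusted p = 0.758) and Aldh1a7 by -0.04 (-0.37 to 0.28, 0.755), and both overlapped. Hcar2 differed by 0.21 (95% interval -0.05 to 0.48, limma adjusted p = 0.0732) and Ucn2 by 0.14 (-0.09 to 0.37, 0.104), and neither overlapped, where 41.5% of all genes did not. Without ESS library 1, Hcar2 was higher in ESS by 0.33 (limma adjusted p = 0.0498). Dio1 differed by 0.60 (95% interval -0.45 to 1.64, limma adjusted p = 0.322), and by 2.38 (0.0222) with a pseudocount of 0.1. The call with that pseudocount rests on NOD values of 0 to 0.142 FPKM, with the same limit as at 8 weeks.

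**Figure D4:**
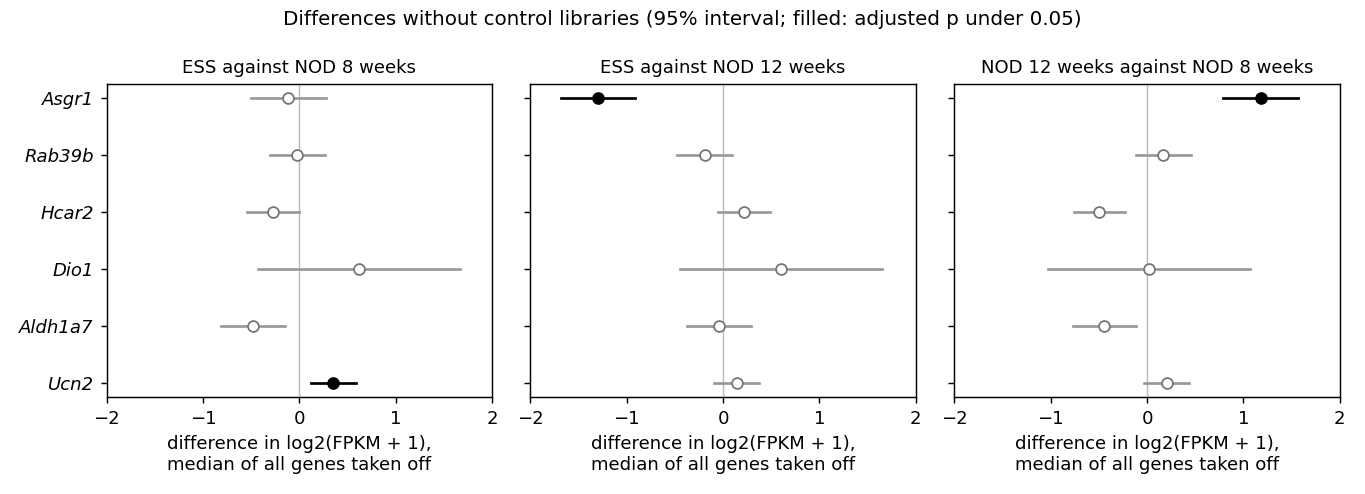
Differences in log2(FPKM + 1) (horizontal axis, the median difference of all genes taken off) for the 6 genes in the 3 comparisons without control libraries. Points are estimates from 3 libraries per group, and lines are their 95% intervals. Those that passed an adjusted p of 0.05, tested before the median was taken off, are filled. Filled points are Ucn2 in ESS against NOD at 8 weeks, at 0.35, and Asgr1 in ESS against NOD at 12 weeks, at -1.30, and in NOD at 12 weeks against 8 weeks, at 1.18.

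Between the NOD ages, 1 of the 6 passed, where 13 genes or 0.126% of all tested did. Asgr1 was higher at 12 weeks than at 8 weeks, with a log2 difference of 1.18 (95% interval 0.79 to 1.56, SE 0.176, limma adjusted p = 0.0281) and a ratio of means of 2.25. All 3 libraries at 12 weeks lay above all 3 at 8 weeks. The difference stayed between 1.11 and 1.27 in all 14 alternatives, but the call was lost without any 1 of the 6 NOD libraries, with an adjusted p of 0.0766 to 0.133. Hcar2 was lower at 12 weeks by -0.49 on the log2 scale (95% interval -0.76 to -0.23) and Aldh1a7 by -0.44 (-0.77 to -0.11), each without overlap, but neither passed (limma adjusted p = 0.186 and 0.350), and 15.5% of all genes did not overlap. Rab39b differed by 0.17 (95% interval -0.11 to 0.45, limma adjusted p = 0.828), Ucn2 by 0.21 (-0.03 to 0.44, 0.678) and Dio1 by 0.02 (-1.03 to 1.06, 0.998), and all 3 overlapped.

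In the order of their levels, Asgr1 and Hcar2 put the groups differently. Asgr1 ran from NOD at 12 weeks, through ESS and NOD at 8 weeks, which did not differ beyond their spread, to control. Hcar2 ran from NOD at 8 weeks and ESS, which overlapped, through NOD at 12 weeks to control. Rab39b had its 3 ESS and NOD groups within their spread of each other. Dio1 and Aldh1a7 had control above the rest, with NOD lowest for Dio1 and with ESS and NOD at 12 weeks overlapping at the low end for Aldh1a7, and Ucn2 ran from control through ESS to the overlapping NOD groups. Apart from Mc5r, alone in its list, the 6 gene lists around these genes had median log2 differences from control of -0.09 to 0.04 in ESS, -0.20 to -0.05 in NOD at 8 weeks and -0.19 to 0.0014 in NOD at 12 weeks, before the medians of all genes (-0.06, -0.15 and -0.18) are taken off. The 6 genes lie on 6 different chromosomes, and no member was among the 3 genes most like another in pattern.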

How the data were processed

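RNA was sequenced from mouse lacrimal glands in 12 libraries of 4 groups, placed by their titles. The labels name Trizol for extraction, KAPA's stranded kit for library making and GRCm38 as the build. The authors deposited FPKM per gene and per transcript, per the file headers. The sources used here do not name an aligner, a counter or an annotation release. GENCODE M21 holds 10224 of the versioned identifiers, each at the same locus.

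The 6 genes, the gene lists and the rule for named genes were chosen with earlier results of these data known. The rule named all 6 genes, their close relatives, the 3 genes of each list with the smallest adjusted p against control and the 3 genes most alike in pattern. Aldh1a1 was compared with Aldh1a7 by the same rule. Motifs were chosen with the promoters in view.

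Values were analysed as log2(FPKM + 1). A gene was tested if 3 or more of the 12 libraries had 1 FPKM or more, which left 10325 of 11736. With limma 3.58.1 (R 4.3.3), a linear model of 4 group means was fitted over the 12 libraries, with a trend, and the two-sided Benjamini-Hochberg adjusted p was held to 0.05 in each of 6 comparisons. The median difference of all genes was taken off the printed log2 differences but not before testing. The model was tested on simulated data. Of the lowest values, 46.0% to 63.4% lay within 0.1 of a whole multiple of a step. Chance gives 20% for a fixed step, but the step was picked per library for the highest share. That makes 20% too low a reference, and whole reads and depth were not recovered. The listed FPKM summed to 620900 to 813760 per library. Libraries of a group correlated at 0.968 to 0.987 over genes.

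RefSeq promoter windows matched 4 of the 6 genes, not Hcar2 and Ucn2. Transcripts were compared with blastn 2.17.0 against GENCODE M21. Alternatives were pseudocounts of 0.1 and 5, quantile normalization, library medians centred, no filter, a 5 FPKM filter, the compared groups alone, a replicate block, each library left out, and ESS libraries 1 and 2 left out. Figures were drawn with matplotlib 3.10.9.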

Additional observations from a re-analysis of the deposited data

Results flagged for a closer look

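The differences from control differed between groups in 3 cases, 2 between ESS and NOD and 1 between the NOD ages, by limma's test of the groups themselves. Ucn2 was higher in ESS than in NOD at 8 weeks, with a log2 difference of 0.35 (adjusted p = 0.0158), so it lay less far below control in ESS. Asgr1 was lower in ESS than in NOD at 12 weeks, with a log2 difference of -1.30 (adjusted p = 0.000846), so it lay less far above control in ESS. Asgr1 was higher in NOD at 12 weeks than at 8 weeks, with a log2 difference of 1.18 (adjusted p = 0.0281). These tests use the ESS and NOD libraries that also chose the genes, so the p-values are not free of that choice. The Ucn2 call was lost without some single libraries, and the Asgr1 call between the NOD ages without any single NOD library. The cause of these differences was not tested. Groups of 3 libraries are too small for the test of a single library far from its group, so none was made.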

How the results depend on the processing

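Against control, the 6 genes kept their direction in each alternative run. Nothing is read from this, because they were chosen for that direction on the same values. The size depended on the pseudocount, as in the ESS difference of Dio1, which was -4.02 with 0.1 and -1.73 with 5. Rab39b, Dio1 and Aldh1a7 could not be tested at a filter of 5 FPKM. Against 17 calls in ESS against control, there were 11 with a pseudocount of 0.1, 35 with no filter, 9 at 5 FPKM, 27 after quantile normalization, 3 with the compared groups alone and 1 to 75 with a library left out (75 without control library 2, 3 without control library 3, 8 without ESS library 1 and 1 without ESS library 2), so this count rests on single libraries. At 5 FPKM, where 5587 genes were tested, calls were 1681 in NOD at 8 weeks against control (2825), 2168 at 12 weeks (3444), 1025 in ESS against NOD at 8 weeks (1570) and 8 between the NOD ages (13). Without ESS libraries 1 and 2, calls were 21 in ESS against control, 552 in ESS against NOD at 8 weeks and 586 against NOD at 12 weeks (2128), with the spread of the lone ESS library taken from the other groups. Leaving out a library gave 1261 to 1906 calls in ESS against NOD at 12 weeks, with the lowest counts without NOD library 2 and, at 1327, without library 3. Between the NOD ages calls were 24 after quantile normalization, 32 with the compared groups alone and 6 to 16 with a library left out (6 without library 2 and 7 without library 3 at 12 weeks).

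Scaling changed the share of calls that were higher. After quantile normalization and with centred medians it was 63% and 75% in ESS against control (41.2% as reported), 47.3% and 52.4% in NOD at 8 weeks (19.4%), 49.1% and 51.3% at 12 weeks (16.6%), 52% and 50.9% in ESS against NOD at 8 weeks (74.1%), 50.1% and 52.8% in ESS against NOD at 12 weeks (78.5%), and 70.8% in NOD at 12 weeks against 8 weeks after quantile normalization (61.5%).

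Small differences that had not passed changed sign. Rab39b in ESS against NOD at 8 weeks was 0.0076 with a pseudocount of 0.1, 0.070 without ESS libraries 1 and 2 and -0.10 to 0.10 with a library left out. Aldh1a7 in ESS against NOD at 12 weeks was 0.17, 0.023 and -0.092 to 0.0071 in the same settings. Dio1 between the NOD ages was -0.12 with a pseudocount of 0.1, -0.058 after quantile normalization and -0.046 to 0.082 with a library left out, and Asgr1 in ESS against NOD at 8 weeks was -0.24 to 0.050 with a library left out. Dio1 in ESS passed against both NOD ages with the compared groups alone (adjusted p = 0.0428 and 0.0364), where its NOD values lie at or near 0 FPKM. Aldh1a7 in ESS against NOD at 8 weeks passed after quantile normalization (-0.53, adjusted p = 0.0349) and without NOD library 1 (-0.64, 0.0414). The cause of these changes was not tested.

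Groups share replicate numbers, and the deviations of 18 same-numbered pairs correlated at -0.10 to 0.20, with 1 over 0.1. Low correlations cannot exclude a pairing, so whether the numbers pair the libraries is not known. With the replicate number as a block, 27 genes passed in ESS against control, and Hcar2 in ESS against NOD at 12 weeks had an adjusted p of 0.0434.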
